A study of Mus musculus with 4 samples.

Results

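The Eph receptors and ephrin-B ligands described here are 10 genes read by symbol from the count tables of mouse somitic gastruloids, out of 24831 genes listed. They comprise 5 receptors of class A (Epha1, Epha2, Epha4, Epha5 and Epha7), 3 of class B (Ephb2, Ephb3 and Ephb4) and 2 ligands of class B (Efnb1 and Efnb2). The members were given by name, chosen with earlier results of these data known, and all 10 had enough reads to be tested. Somitic gastruloids are aggregates of embryonic stem cells that elongate in culture and form presomitic tissue and somites. All libraries came from 1 line, E14 embryonic stem cells with a triple reporter, in which the endogenous Zeb2 gene is fused to the FKBP12 F36V degron and an HA tag, so the controls carry the tagged gene too. Each aggregate was started from 300 sorted cells, given 3 μM CHIR99021, which activates WNT signalling, from 48 h, and moved into 10% Matrigel at 96 h. The treated group received 100 nM dTAG-13, a molecule that directs the tagged ZEB2 protein to degradation, at 72 h and again at 96 h. The other group is labelled untreated, with DMSO named as the control in the growth protocol. Each group held 2 RNA-seq libraries, numbered 1 and 2 in both, and the labels do not say if those were grown apart. The p-values therefore reflect spread among libraries that may be technical.

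Eph receptors are receptor tyrosine kinases and ephrins are their membrane-bound ligands, so that signals pass mainly between cells in contact. Class A ephrins are held by a lipid anchor and class B ephrins span the membrane and have a cytoplasmic tail, through which they signal back into the cell that carries them while the receptor signals forward. In the embryo the system is known for keeping cell populations apart and for forming borders, such as those between somites, between segments of the hindbrain and between arteries and veins.

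Libraries held 11491330 to 12716172 reads counted in genes, and 13602 genes were tested. The member counts ranged from 115 to 1584 reads per library. Zeb2 mRNA measured 98.3 and 164 CPM (counts per 1000000 reads of the TMM-scaled library size) in untreated libraries 1 and 2, and 103 and 108 CPM in the dTAG-13 libraries, and since dTAG-13 acts on the protein this does not check the labels. The label of somitic tissue was set against 8 somite genes, all of which were detected, with a summed level of 143 to 263 CPM in the untreated libraries and 70.1 to 124 CPM with dTAG-13. The libraries are of bulk tissue, so fewer cells of a type and less RNA per cell cannot be told apart.

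ZEB proteins are known to bind the E-box CACCTG, so the promoters of the members were searched for it on both strands, in RefSeq sequences of GRCm38.p6 that run from 250 bases before to 50 bases after the start of a gene. All 10 members had a promoter in the table. The sequence was found in 3 of the 10, Epha1, Ephb2 and Efnb2, against 20.2% of all 32851 promoters of that length. Those matches are shown with 15 bases on either side, read 5′ to 3′ on the strand of the gene, with the E-box in capitals; CAGGTG is the same box on the opposite strand.
Epha1 (chr6:42373319-42373354, minus strand): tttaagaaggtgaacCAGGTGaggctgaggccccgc
Ephb2 (chr4:136836017-136836052, minus strand): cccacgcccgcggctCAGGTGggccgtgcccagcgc
Efnb2 (chr8:8661389-8661424, minus strand): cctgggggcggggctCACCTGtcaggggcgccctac
The match began 71 bases before the start site in Epha1, 25 bases before it in Ephb2 and 167 bases before it in Efnb2. A match is a string of letters and not evidence of binding.

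The promoters of Ephb3 and Epha5 are shown in full because these were the members with the smallest p in each direction. Neither held CACCTG. The shorter string CACCT, which lies within CACCTG and so also counts every match of it, was found in 4 of the 10 members and in 51.9% of all promoters; Epha5 held it once on the opposite strand, where AGGTG is in capitals, and Ephb3 did not, so its sequence has no capitals.
Ephb3 (chr16:21204545-21204844, plus strand): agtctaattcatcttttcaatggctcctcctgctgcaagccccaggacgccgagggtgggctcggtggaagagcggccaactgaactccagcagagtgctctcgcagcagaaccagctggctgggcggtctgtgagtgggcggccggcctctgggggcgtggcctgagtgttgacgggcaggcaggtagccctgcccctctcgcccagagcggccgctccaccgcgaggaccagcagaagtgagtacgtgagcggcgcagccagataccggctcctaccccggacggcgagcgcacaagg
Epha5 (chr5:84417333-84417632, minus strand): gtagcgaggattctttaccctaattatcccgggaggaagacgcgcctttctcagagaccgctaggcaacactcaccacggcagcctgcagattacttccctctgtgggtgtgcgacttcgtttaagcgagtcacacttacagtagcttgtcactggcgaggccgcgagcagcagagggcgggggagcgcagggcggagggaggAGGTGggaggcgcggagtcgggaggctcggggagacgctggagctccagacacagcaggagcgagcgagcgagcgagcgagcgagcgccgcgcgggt
No match says only that these letters are not in this window.

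The comparison of dTAG-13 with untreated gastruloids asked which transcripts differ under a treatment meant to remove ZEB2 protein. The libraries do not measure that protein. No member passed an adjusted p of 0.05 in edgeR's quasi-likelihood test over all genes (0 of 10), and the background was 0% of the 13602 genes tested. DESeq2 called 0 of the 10 members and 0.294% of all genes. When the replicate number entered the edgeR fit as a block, 1 of the 10, Ephb3, was called, against 4.68% of all genes; no label says what libraries of the same number share. At an unadjusted p under 0.05 there was 1 member higher, Ephb3, against 2.29% of all genes, and 1 lower, Epha5, against 1.23%. Ephb3 was 1.41-fold higher with dTAG-13 and Epha5 1.55-fold lower. Between replicate numbers 1 and 2 the differences of Epha1, Epha2 and Efnb1 were larger than any difference with dTAG-13 among the members.

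Across the 10 members the median log2 fold change was 0.20, with 7 above 0 and 3 below. Over all 13602 genes tested the median was 0.0040, with 6926 above 0 and 6676 below. Within both replicate numbers 6 members were higher with dTAG-13 (5 with upper quartile factors, which left out Epha1), against 27.7% of all genes, and 3 were lower, against 23.9%. Counts in which both dTAG-13 libraries stood outside both untreated libraries were smaller: 2 members were above without overlap, Ephb3 and Ephb4, against 14.4% of all genes, and 1 was below, Epha5, against 11.9%. With library totals in place of scaling factors Epha4 joined the members above.

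**Figure D1:**
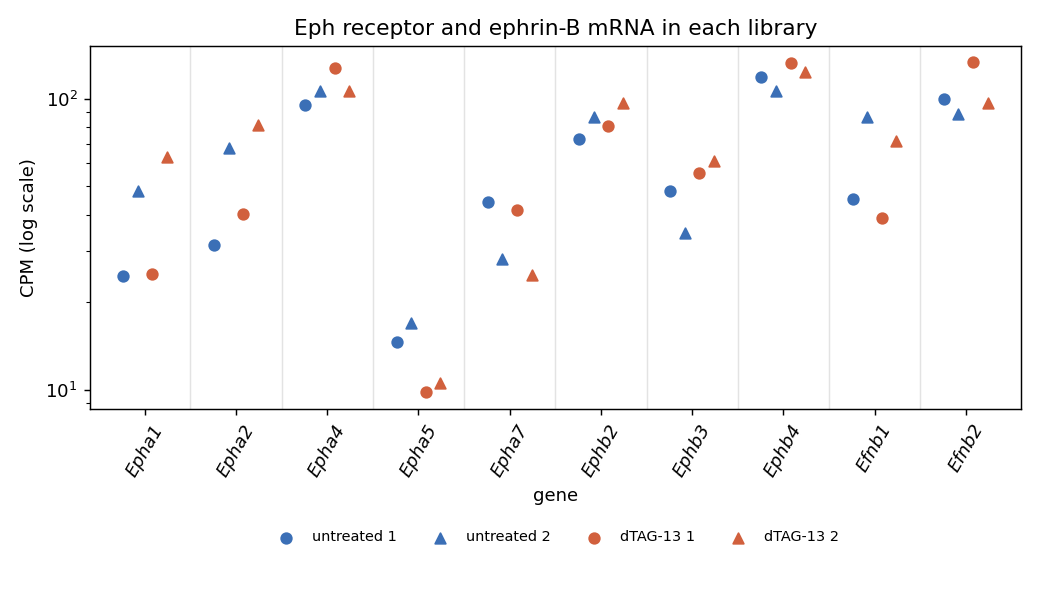
CPM (log scale) of the 10 members in each of the 4 libraries; blue is untreated, orange dTAG-13, circles replicate number 1 and triangles number 2. Ephb3 and Ephb4 have both orange points above both blue ones and Epha5 has both below, while Epha1, Epha2 and Efnb1 separate by number.

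Among the class B receptors, Ephb3 (chr16:21204755-21223305 in GRCm38, the build of all gene positions here), which binds ephrin-B ligands and is known in the gut crypt and in axon guidance, was at 48.1 CPM in untreated library 1 and 34.7 CPM in untreated library 2. With dTAG-13 it was at 55.6 and 61.0 CPM in libraries 1 and 2. Both treated libraries were above both untreated ones, and untreated library 2 was the lowest. The log2 fold change was 0.49 ± 0.19 (SE; adjusted p = 1.00, edgeR). It was 0.21 within number 1 (95% exact interval from the read counts 0.05 to 0.37) and 0.81 within number 2 (0.63 to 0.99). Such intervals cover counting error only. Without untreated replicate 2 the fitted value was 0.28, and without untreated replicate 1 it was 0.73. Fits without 1 library, here and below, had group as the only term, so differences between replicate numbers enter their values.

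Ephb4 (chr5:137350109-137378669), the receptor of Efnb2 that is known from venous endothelium, measured 119 and 107 CPM without treatment, against 133 and 124 CPM under dTAG-13 in libraries 1 and 2. The groups did not overlap, by a narrow margin, and the group means were 113.0 ± 8.88 and 128.5 ± 6.61 CPM (SD, n = 2 each). The log2 fold change was 0.18 ± 0.14 (adjusted p = 1.00, edgeR), and 0.11 without untreated replicate 2. Exons of Ephb4 share 33 bases with Zan on the opposite strand, which is 0.71% of its merged exon length. Summed CPM of 8 endothelial genes was 175 and 143 in number 1, untreated and dTAG-13, and 44.4 and 49.2 in number 2, and their part in the values of Ephb4 was not tested.

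Ephb2 (chr4:136647539-136835988), a receptor for ephrin-B ligands known in axon guidance and epithelial sorting, measured 73.0 and 86.8 CPM without treatment, against 80.6 and 96.9 CPM under dTAG-13. Within each number the treated library was higher, by 0.14 and 0.16 on the log2 scale, but the groups overlapped because the number 2 libraries were higher in both. Its log2 fold change was 0.15 ± 0.16 (adjusted p = 1.00, edgeR), and it turned to -0.01 without dTAG-13 replicate 2.

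Of the class A receptors, Epha5 (chr5:84054761-84417382), known from axon guidance in the nervous system, measured 14.6 and 16.9 CPM without treatment, against 9.81 and 10.5 CPM under dTAG-13. Both treated libraries were below both untreated ones, and the libraries of each group lay close together (SD 1.62 and 0.509 CPM, n = 2 each). The log2 fold change was -0.63 ± 0.24 (adjusted p = 1.00, edgeR). The difference was -0.57 within number 1 and -0.67 within number 2, and the counting intervals, -0.92 to -0.23 and -1.02 to -0.35, were wide because the gene had 115 to 194 reads per library. Leaving out single libraries gave -0.52 to -0.75.

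Epha7 (chr4:28813131-28967499), a receptor for class A ephrins also known in the developing nervous system, measured 44.3 and 28.2 CPM without treatment, against 41.5 and 24.8 CPM under dTAG-13. It was lower in number 2 in both groups, so the groups overlapped. The log2 fold change was -0.13 ± 0.33 (adjusted p = 1.00, edgeR). It turned to 0.22 without untreated replicate 1 and to 0.17 without dTAG-13 replicate 2. Summed CPM of 8 neural progenitor genes was 120 and 203 in untreated libraries 1 and 2 and 54.1 and 73.8 with dTAG-13, and its part in the values of Epha5 and Epha7 was not tested.

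Epha4 (chr1:77367185-77515088), which binds ephrins of both classes and is known at somite borders and in the hindbrain, measured 95.1 and 107 CPM without treatment, against 128 and 107 CPM under dTAG-13. Only dTAG-13 library 1 stood above the others. The difference was 0.43 within number 1 (counting interval 0.32 to 0.54) and 0.00 within number 2 (-0.12 to 0.11). The fitted log2 fold change was 0.22 ± 0.15 (adjusted p = 1.00, edgeR) and 0.08 without dTAG-13 replicate 1. Over 8 presomitic and segment border genes the summed CPM was 180 and 189 untreated and 130 and 97.3 with dTAG-13. The hindbrain list of 5 genes measured 130 and 186 CPM without treatment, against 86.5 and 120 CPM under dTAG-13, and Egr2, which marks hindbrain segments, had 0 counts in every library, which allows up to 0.267 CPM at 3 counts. The part of these sums in the values of Epha4 was not tested.

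Epha1 (chr6:42358487-42373268), a receptor known from epithelia, measured 24.6 and 48.1 CPM without treatment, against 25.0 and 62.9 CPM under dTAG-13. Epha2 (chr4:141301240-141329384), known from epithelia and the early embryo, measured 31.5 and 67.8 CPM without treatment, against 40.2 and 81.5 CPM under dTAG-13. For both receptors the number 2 libraries were high and the number 1 libraries low in either group. The log2 fold change was 0.28 ± 0.61 for Epha1 and 0.30 ± 0.55 for Epha2 (both adjusted p = 1.00, edgeR). Each turned below 0 without untreated replicate 1 (-0.15 and -0.17) and without dTAG-13 replicate 2 (-0.56 and -0.32). With the replicate number as a block, Epha1 had 0.22 ± 0.15 and Epha2 0.31 ± 0.14 (adjusted p = 0.72 and 0.29, edgeR).

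Within replicate numbers Epha2 was higher with dTAG-13 by 0.35 (counting interval 0.16 to 0.55) and 0.27 (0.13 to 0.41) on the log2 scale. Epha1 was higher by 0.39 within number 2 (0.22 to 0.55), and within number 1 the difference was 0.03 (-0.21 to 0.26), which turned to -0.02 with upper quartile factors and -0.10 with library totals. Exons of Epha1 share 236 bases, 6.01% of its merged exon length, with Zyx on the opposite strand. Without a known strand setting it cannot be said whether reads there were counted for Epha1, for Zyx or as ambiguous. Zyx, an adhesion protein, measured 48.2 and 74.8 CPM without treatment, against 58.4 and 55.9 CPM under dTAG-13. Summed CPM of 9 epithelial genes was 579 and 817 untreated and 1047 and 1982 with dTAG-13, so that it was 1.81 and 2.43 times the untreated level within numbers 1 and 2. For 6 pluripotency genes the sum was 264 and 336 untreated and 351 and 484 with dTAG-13. Their part in the values of Epha1 and Epha2 was not tested.

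Of the ligands, Efnb2 (chr8:8617434-8661242), the partner of Ephb4 in vessels and of Epha4 at somite borders, measured 100.0 and 89.0 CPM without treatment, against 134 and 96.8 CPM under dTAG-13. Each treated library was above its untreated library of the same number, and the groups overlapped because dTAG-13 library 2 was below untreated library 1. The difference was 0.42 within number 1 (counting interval 0.31 to 0.52). Within number 2 it was 0.12, with an interval that included 0 (-0.002 to 0.25). The log2 fold change was 0.29 ± 0.19 (adjusted p = 1.00, edgeR), and 0.03 without dTAG-13 replicate 1.

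Efnb1 (chrX:99136130-99148991), a ligand known from skeletal and craniofacial patterning, measured 45.3 and 86.8 CPM without treatment, against 38.8 and 71.4 CPM under dTAG-13. It was lower with dTAG-13 within each number, by 0.22 (counting interval of the difference -0.40 to -0.04) and 0.28 (-0.42 to -0.15) on the log2 scale. The number 2 libraries were high in both groups, and the groups overlapped. The fitted log2 fold change was -0.26 ± 0.46 (adjusted p = 1.00, edgeR). It turned to 0.11 without dTAG-13 replicate 1 and to 0.28 without untreated replicate 2.

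**Figure D2:**
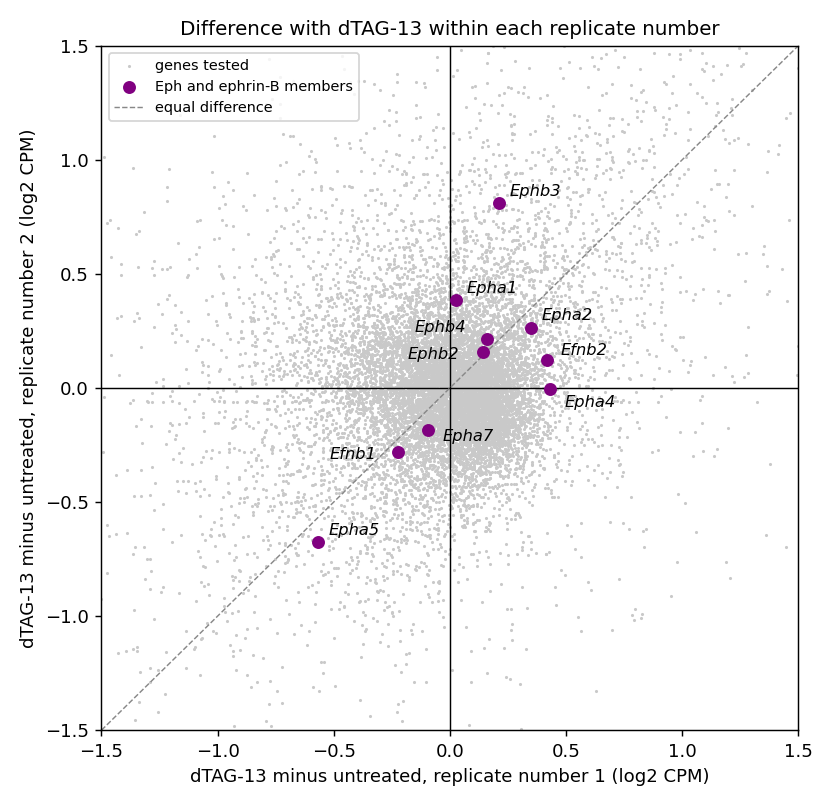
Difference in log2 CPM between dTAG-13 and untreated within replicate number 1 (horizontal) and number 2 (vertical), for the 10 members (purple) over all genes tested (grey; 255 genes lie outside the axes). Epha5 lies low on both axes, at -0.57 and -0.67, Ephb3 is higher in number 2 (0.81) than in number 1 (0.21), and Epha4 is displaced in number 1 only.

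In read counts alone, 6 members had intervals that left out 0 in the same direction within both numbers. Epha2, Ephb2, Ephb3 and Ephb4 were the 4 higher ones, against 7.00% of all genes, and Epha5 and Efnb1 the 2 lower ones, against 4.61%. Intervals of this kind narrow with the number of reads, which differs between genes. Counting error does not include the spread between gastruloid cultures or library preparations, so this is no test of the treatment.

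The median absolute log2 difference between replicate numbers was 0.36 over the members in either group, beside 0.23 over all genes tested. Epha2 was 2.15-fold higher in number 2 than in number 1 among untreated libraries and 2.03-fold with dTAG-13. Epha1 was 1.95-fold and 2.51-fold higher, and Efnb1 1.91-fold and 1.84-fold. Epha7 was the member lower in number 2 by more than 1.5-fold in both groups, 1.57-fold and 1.67-fold. In total 3 members were over 1.5-fold higher in both groups, against 3.88% of all genes, and 1 was lower, against 5.32%. The signs held with each set of scaling factors tried.

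Ephb3 was lower in number 2 among untreated libraries, with a log2 difference of -0.47. With dTAG-13 its difference was 0.13, with a counting interval that included 0 (-0.02 to 0.29). Epha4 went the other way between the groups, with 0.17 untreated and -0.27 with dTAG-13. Efnb2 and Ephb4 were lower in number 2 in both groups, by 0.17 and 0.46 and by 0.16 and 0.10 on the log2 scale. Marker sums also differed between the numbers. The endothelial sum in number 2 was 0.254 and 0.343 times that in number 1, in untreated and dTAG-13 libraries. The somite sum was 0.544 and 0.563 times, the epithelial sum 1.41 and 1.89 times and the pluripotency sum 1.27 and 1.38 times. Kdr was the largest part of the endothelial sum in number 1, and Pecam1 was the only gene of that list not lower in number 2 in both groups. Meox1, the largest part of the somite sum, was at 168 and 81.2 CPM in number 1 and 77.2 and 37.8 in number 2. Tcf15 was slightly higher in number 2 in both groups, and Dmrt2 and Pax3 were higher there with dTAG-13 only. The other somite genes were lower in number 2 in both groups. Summed CPM of 6 gut endoderm genes was 344 and 242 untreated and 361 and 329 with dTAG-13. Their part in the differences of the members was not tested.

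**Figure D3:**
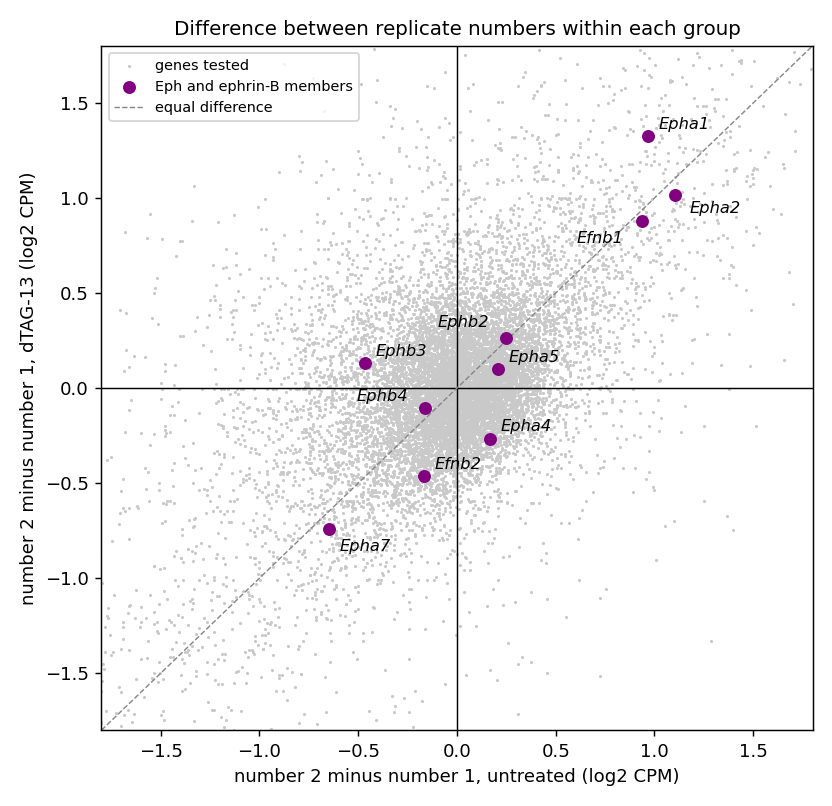
Difference in log2 CPM between replicate numbers 2 and 1 in the untreated libraries (horizontal) and in the dTAG-13 libraries (vertical), for the members (purple) over all genes tested (grey; 332 genes lie outside the axes). Epha1, Epha2 and Efnb1 lie near or above 0.88 on both axes and Epha7 lies at -0.65 and -0.74.

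Levels of different genes were compared as CPM per kb of merged exons in the GENCODE M21 annotation of GRCm38, over all 22 Eph and ephrin genes. Annotated exons that the cells do not use make such a level too low, and the merged exons of Epha5 were the longest of the 22, at 16.7 kb. In untreated gastruloids Ephb4 had the highest mean, 24.4 ± 1.91 CPM per kb (SD, n = 2), and it was first with dTAG-13 too, at 27.7 ± 1.43. Efnb1 was the second in untreated libraries at 19.1 ± 8.50, where its library 2 (25.1) lay between those of Ephb4 (25.7 and 23.0). Efna5, Efnb2, Efna4 and Epha4 followed at means of 14.0, 13.8, 13.6 and 12.5, and each overlapped the next in its untreated libraries.

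Epha2 (10.6 ± 5.49) and Epha1 (9.25 ± 4.24) stood in the middle of the order, and their libraries separated by replicate number. Ephb2 and Ephb3 had 6.34 and 6.23 CPM per kb. The untreated libraries of Ephb3 both lay above those of Ephb6, which came next in the order at 3.90. Epha7 (3.67) was above Ephb1 (1.54), and Epha5 (0.941 ± 0.0968) lay below Ephb1 without overlap and was the lowest of the members. Ephb4 made up 34.1% of the summed level of the 14 receptors in untreated library 1, 33.6% in dTAG-13 library 1, 27.2% in untreated library 2 and 27.0% in dTAG-13 library 2. Epha1 and Epha2 made up 8.29% and 8.93% in untreated library 1 and 14.5% and 17.1% in untreated library 2, and with dTAG-13 they made up 7.44% and 10.1% in library 1 and 16.2% and 17.6% in library 2. The makeup of the receptors thus differed more between numbers than between groups for these 3 genes.

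**Figure D4:**
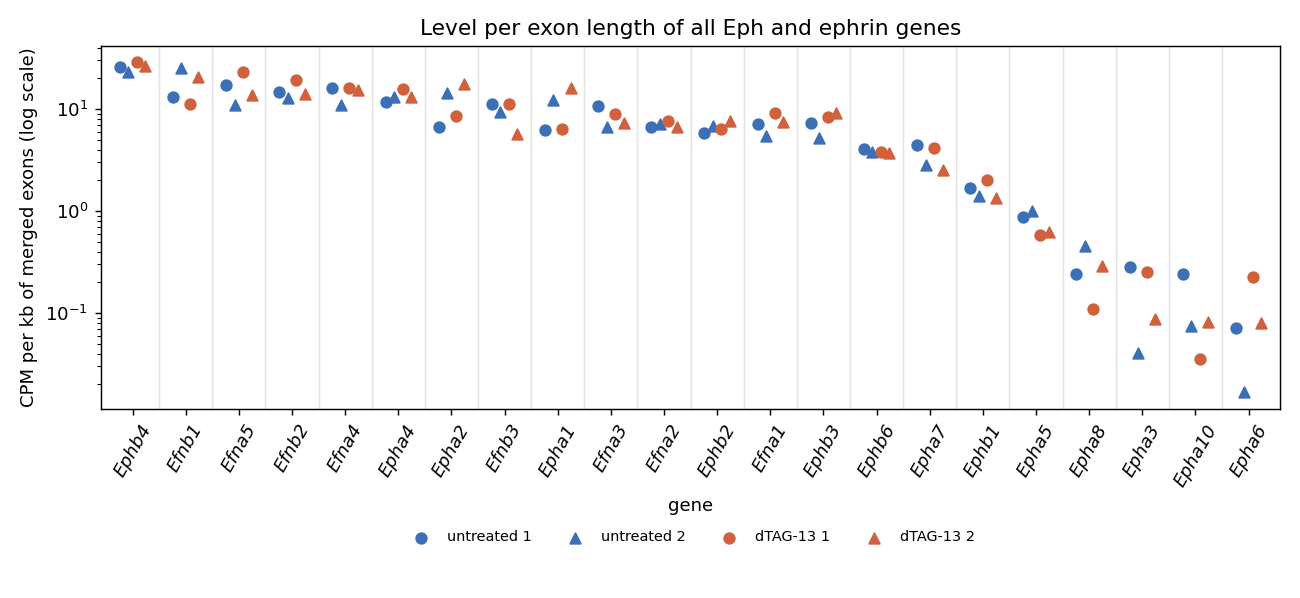
Level of all 22 Eph and ephrin genes as CPM per kb of merged exons (log scale) in each library, ordered by the untreated mean; symbols as in the plot of member counts. Ephb4 leads the order in both groups and Epha5 is the lowest of the 10 members.

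The other 12 genes of both families were examined in the same fit. Of these, 10 had enough reads to be tested, 0 passed an adjusted p of 0.05 and 0 had an unadjusted p under 0.05 in edgeR, and DESeq2 called 0. Epha6 and Epha10 had at most 14 and 23 reads in any library and were not tested. Among the class A ligands, Efna1 measured 13.2 and 9.88 CPM without treatment, against 16.7 and 13.6 CPM under dTAG-13; its log2 fold change was 0.39 ± 0.26. Efna5, the class A ligand with the most reads, measured 69.0 and 44.0 CPM without treatment, against 94.1 and 55.1 CPM under dTAG-13; its log2 fold change was 0.40 ± 0.35, and like Epha7 it was lower in number 2 in both groups. Efna4, Efna2 and Efna3 had log2 fold changes of 0.22, 0.05 and -0.09.

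Efnb3, the remaining class B ligand, known from axon guidance at the midline, measured 35.7 and 30.1 CPM without treatment, against 35.6 and 18.1 CPM under dTAG-13. Only dTAG-13 library 2 stood low, and the log2 fold change was -0.29 ± 0.34. Ephb1 and Ephb6, the latter a receptor without kinase activity, had log2 fold changes of 0.12 ± 0.30 and -0.06 ± 0.22. Epha3 and Epha8, at 0.356 to 2.49 CPM, had 0.04 ± 0.96 and -0.79 ± 0.65. The adjusted p of each was 1.00 by edgeR.

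**Figure D5:**
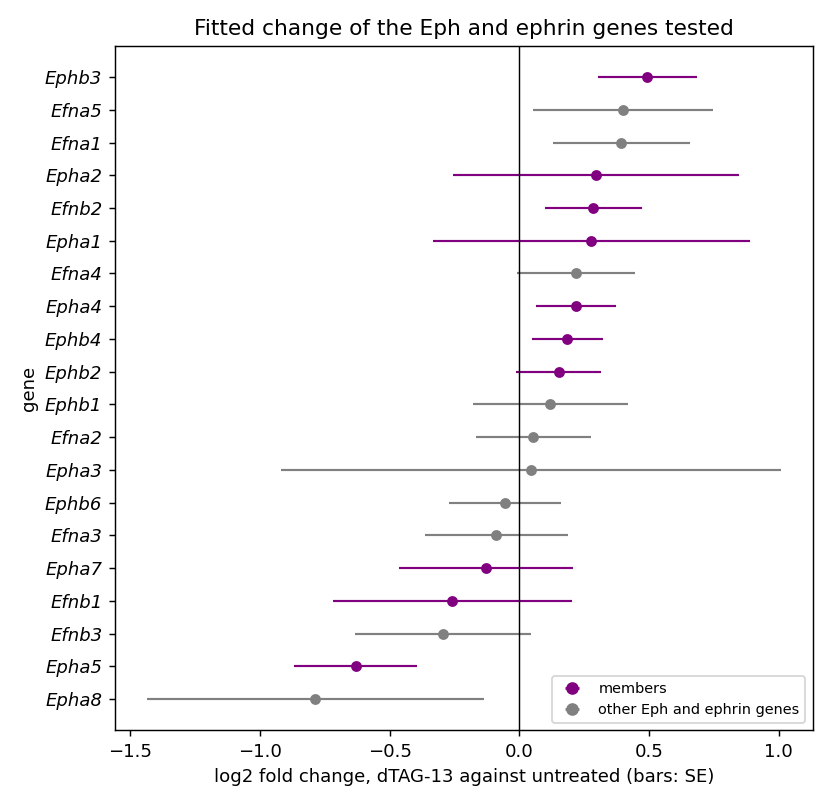
Fitted log2 fold change of dTAG-13 against untreated (points) with its standard error (bars) for the 20 Eph and ephrin genes tested, members in purple and the rest in grey. Ephb3 is highest at 0.49 and Epha5 is the lowest member at -0.63, and the bars of Epha1 and Epha2 are wide, 0.61 and 0.55.

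Partners of Eph and ephrin signalling were taken from lists of 27 receptor effectors, 10 proteins of ephrin-B reverse signalling and 6 proteases, and 0 of the 42 tested passed over all genes in DESeq2 or in edgeR with group as the only term. A second edgeR fit, blocked on replicate number, called Arhgef5 and Arhgef16 higher and Grip1 lower, 3 of the 42 against 4.68% of all genes. Grip1 differed by -0.97 on the log2 scale within number 1 and by -0.007 within number 2. At an unadjusted p under 0.05 with group alone there were 2 receptor effectors, Arhgef5 and Arhgef16, both higher, against 2.29% of all genes, and 0 in the other lists. The median log2 fold changes of the lists were 0.06, 0.08 and 0.02, beside 0.0040 over all genes tested. The effector with the smallest p was Arhgef5, an exchange factor of the ephexin family, at 25.0 and 31.2 CPM without treatment, against 45.8 and 59.0 CPM under dTAG-13. Both treated libraries were above both untreated ones, and the log2 fold change was 0.90 ± 0.19 with an adjusted p of 0.774 by edgeR. Arhgef16, an ephexin that binds EPHA2 protein, measured 7.68 and 10.2 CPM without treatment, against 12.8 and 27.4 CPM under dTAG-13; its log2 fold change was 1.17 ± 0.41 (adjusted p = 1.00, edgeR). Its groups did not overlap either, and the epithelial sum given above was also higher in both treated libraries, whose part was not tested.

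Fyn, a SRC family kinase that acts below Eph receptors, measured 68.6 and 73.5 CPM without treatment, against 62.2 and 56.2 CPM under dTAG-13; its log2 fold change was -0.26 ± 0.14. Of the reverse signalling list, Grip1, a PDZ scaffold that binds the tail of class B ephrins, measured 112 and 62.1 CPM without treatment, against 56.6 and 61.8 CPM under dTAG-13. Untreated library 1 alone stood high, and the log2 fold change was -0.55 ± 0.29. Ptpn13, a phosphatase that acts on class B ephrins, and Pard6b, a polarity protein that binds Efnb1 protein, had log2 fold changes of 0.26 ± 0.19 and 0.20 ± 0.15. Among proteases that cut Eph receptors, ephrins or their matrix, Mmp14 and Mmp2 had 0.29 ± 0.32 and -0.23 ± 0.33. Rhbdl2, a rhomboid protease of class B ephrins, had 0 counts in 3 libraries and 1 in dTAG-13 library 2 and was not tested. The adjusted p of Fyn, Grip1, Ptpn13, Pard6b, Mmp14 and Mmp2 was 1.00 by edgeR.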

How the data were processed

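RNA was measured in 4 libraries of somitic gastruloids made with the KAPA RNA HyperPrep kit and ribosomal RNA depletion, per the labels' protocols. Per the submitters' processing notes, the tools were HTSeq 0.12.4, STAR 2.7.6a, DESeq2 1.34.0 and fastp 0.20.1, on GRCm38.p6 and mm10; the notes as read here give no roles. The authors deposited raw read counts per gene symbol, 1 table per library, not normalized; the sources used here give neither annotation nor strand setting. Library sizes leave out the summary lines. Of reads in genes, outside genes or ambiguous, those outside genes were 35.7% in untreated library 1 and 24.1% to 29.2% in the other libraries. Ambiguous reads were 0.209% to 0.240% of the same total.

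Samples were grouped by title. The test was edgeR 4.0.16 in R 4.3.3: filterByExpr (minimum count 10, minimum total 15), TMM factors, robust glmQLFit, then glmQLFTest (two-sided) on group alone, with Benjamini-Hochberg adjustment over 13602 genes and a threshold of 0.05. The common biological coefficient of variation was 21.7%. SEs are the absolute log2 fold change over the square root of F. Differences within or between replicate numbers are of log2 CPM with a prior count of 2; their 95% intervals are exact Clopper-Pearson intervals of the read counts. The replicates of a group differed beyond sampling noise (chi-square per degree of freedom 38.4 untreated, 32.7 dTAG-13), so none was a library deposited a second time. DESeq2 1.42.0 was an alternative.

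Named were all members, the other genes of both families, and in each partner list the 3 of smallest p whose average log2 CPM was 0 or more (1 protease that the rule names is not reported here); Rhbdl2, Zyx, Zan and Egr2 were named after their values were seen. Members and lists were chosen with earlier results of these data known. Positions and exon lengths are from GENCODE M21 (GRCm38), promoters from RefSeq (GRCm38.p6).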

Additional observations from a re-analysis of the deposited data

How the results depend on the processing

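The alternatives were RLE and upper quartile factors, no filter, a minimum count of 50, DESeq2, the replicate block and leaving out each library. Among 100 values of single members, 90 kept their direction and side of the threshold, 9 turned direction and 1 newly passed. All 9 turned values came from leaving out a library. Those fits had group as the only term, so a group left with 1 library held 1 replicate number. Differences between the numbers therefore enter these fitted values, and their part was not tested. Within both numbers Epha2 and Ephb2 were higher with dTAG-13, and Epha7 and Efnb1 were lower. The sign of Epha1 within number 1 depended on the scaling factors. Over the 4 fits that each leave one out, Epha1 ranged from -0.56 to 0.84 and Epha2 from -0.32 to 0.95, both below 0 without untreated replicate 1 (-0.15 and -0.17) or dTAG-13 replicate 2. Epha7 ranged from -0.55 to 0.22, above 0 without untreated replicate 1 or dTAG-13 replicate 2 (0.17). Ephb2 ranged from -0.0067 to 0.28, below 0 without dTAG-13 replicate 2, and Efnb1 from -0.78 to 0.28, above 0 without dTAG-13 replicate 1 (0.11) or untreated replicate 2. Those that kept their sign ranged from 0.28 to 0.73 for Ephb3, 0.11 to 0.25 for Ephb4, 0.078 to 0.32 for Epha4, 0.033 to 0.48 for Efnb2 and -0.75 to -0.52 for Epha5. The median log2 fold change of the members was 0.18 with upper quartile factors and 0.18 with a minimum count of 50. It ranged from 0.069 to 0.28 when single libraries were left out, with 5 to 8 of the members above 0. DESeq2 called 40 genes, none of them an Eph or ephrin gene or a listed partner; the cause was not tested.

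No label says what a number shares, so the replicate numbers pair the libraries only as a hint from the data: over 13602 genes the deviations of same-numbered libraries correlated at r = 0.63. With the replicate block 636 genes were called, 395 higher and 241 lower (4.68%). Among them was 1 member, Ephb3 (log2 fold change 0.51, adjusted p = 0.00958 by edgeR), and 3 partners, Arhgef5 and Arhgef16 higher and Grip1 lower. The Grip1 difference lay within number 1 alone. That of Ephb3 was 0.21 within number 1 and 0.81 within number 2. With the block Epha5 had an adjusted p of 0.0715 by edgeR. The SEs of Epha1, Epha2, Epha7 and Efnb1 were 0.15, 0.14, 0.15 and 0.14 with the block. Their adjusted p was 0.72, 0.29, 0.95 and 0.48 by edgeR. Epha5 had the fewest reads of the members, 115 to 194 per library.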
